A study of Mus musculus with 6 samples.

Results

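The IFIT and IFITM families were followed as 9 genes, named by their symbols: Ifit1, Ifit1bl1, Ifit2, Ifit3 and Ifit3b of the IFIT family and Ifitm1, Ifitm2, Ifitm3 and Ifitm6 of the IFITM family. All 9 were found among the 26264 gene symbols of each library. The cells were brown preadipocytes of wild-type Bl6N mice, taken from the stromal vascular fraction and, per the study's methods, immortalized with the SV40 large T antigen, so all groups share this transgene and come from cultured cells. In each of the 3 collections, 1 group had received 5.5 nM FGF8 for 48 h and the other was untreated, which the methods call vehicle-treated. Cells were collected right after this pretreatment (day 0), or on day 3 or day 9 after it, following 2 days of adipogenic induction and then differentiation medium. The labels name the last time point D7. It was taken here as day 9 of the study, which counts 2 days of induction and 7 days of differentiation medium after the pretreatment. Their growth text describes primary white preadipocytes and their treatment text lists several FGFs, whereas the titles and the series description give the immortalized brown cells named here. Each of the 6 combinations of treatment and day is 1 library of bulk RNA sequencing, so no difference at a single day has a replicate check.

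Both families belong to the interferon response. Type I interferons bind their receptor on the cell surface and activate JAK kinases and a complex of STAT proteins with IRF9, which binds the interferon-stimulated response element (ISRE) in the promoters of such genes. IFIT proteins are cytosolic and bind viral RNA or other IFIT proteins, with IFIT1 recognizing RNA caps that lack host methylation, whereas IFITM proteins sit in the plasma membrane or in endosomes and hinder the entry of enveloped viruses. Fibroblasts and preadipocytes, like most cell types, can express both families.

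The 5 IFIT genes lie in 1 cluster on chromosome 19 from 34527932 to 34632174 in GRCm39, and the 4 IFITM genes in 1 cluster on chromosome 7 from 140534738 to 140597837. RefSeq promoter windows, from 250 bases before to 50 bases after the annotated start, were found for all 9 genes. Their letters came from a table of build GRCm38.p6, and each matched GRCm39 once. The ISRE core, which is GAAA, any 2 bases and GAAA again and was searched on both strands, occurred in the windows of 6 of the 9 genes (Ifit1, Ifit1bl1, Ifit3, Ifit3b, Ifitm2 and Ifitm3), against 3.99% of 27025 genes. A gamma-activated site, TTCNNNGAA, which is the motif bound by STAT dimers, occurred in those of Ifit2, Ifitm3 and Ifitm6, against 9.55% of all genes. In Ifitm3 it overlaps the second ISRE match. A match to these letters is a description and not evidence of a bound site. The windows of 5 genes are shown because they hold the matches of the abundant members, from 220 bases before to 30 bases after the start, 5′ to 3′ on the strand of the gene with GRCm39 positions. Capitals mark the ISRE core, which reads TTTC, any 2 bases and TTTC where it lies on the opposite strand.
Ifit1 (chr19:34618069-34618318, plus strand): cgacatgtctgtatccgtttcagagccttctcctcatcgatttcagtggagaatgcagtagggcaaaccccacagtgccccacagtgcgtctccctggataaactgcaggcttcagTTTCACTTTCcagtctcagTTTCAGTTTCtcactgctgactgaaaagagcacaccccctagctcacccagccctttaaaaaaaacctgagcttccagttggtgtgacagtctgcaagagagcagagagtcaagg
Ifit3 (chr19:34560709-34560958, plus strand): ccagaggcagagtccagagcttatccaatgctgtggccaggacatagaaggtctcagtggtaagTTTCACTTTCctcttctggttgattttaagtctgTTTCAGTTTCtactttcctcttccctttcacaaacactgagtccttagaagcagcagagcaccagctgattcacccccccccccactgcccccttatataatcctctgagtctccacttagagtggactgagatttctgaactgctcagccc
Ifit3b (chr19:34585137-34585386, plus strand): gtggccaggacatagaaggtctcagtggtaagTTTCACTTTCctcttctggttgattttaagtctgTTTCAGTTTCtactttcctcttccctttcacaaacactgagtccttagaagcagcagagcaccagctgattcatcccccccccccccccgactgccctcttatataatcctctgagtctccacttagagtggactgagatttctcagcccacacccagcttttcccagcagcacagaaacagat
Ifitm2 (chr7:140535845-140536094, minus strand): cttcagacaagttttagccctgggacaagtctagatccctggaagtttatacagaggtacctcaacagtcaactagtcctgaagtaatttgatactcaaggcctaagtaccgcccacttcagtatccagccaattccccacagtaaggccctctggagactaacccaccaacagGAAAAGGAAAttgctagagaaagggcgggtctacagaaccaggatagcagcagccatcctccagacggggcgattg
Ifitm3 (chr7:140590628-140590877, minus strand): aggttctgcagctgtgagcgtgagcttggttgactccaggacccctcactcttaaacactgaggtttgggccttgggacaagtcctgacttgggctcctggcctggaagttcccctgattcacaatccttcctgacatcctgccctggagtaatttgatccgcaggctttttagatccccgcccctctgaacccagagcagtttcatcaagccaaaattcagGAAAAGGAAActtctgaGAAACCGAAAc
The matches in Ifit1 lay at positions -104 to -95 and -85 to -76 from the start, where 1 is the first transcribed base of the RefSeq model. Those of Ifit3 lay at -156 to -147 and -122 to -113, and those of Ifit3b, with the same letters, at -188 to -179 and -154 to -145. In Ifitm2 the match lay at -46 to -37, whereas both matches of Ifitm3 lay after the start, at 3 to 12 and 20 to 29.

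The libraries held 16403254 to 38551551 counts. Counts were divided by size factors, and log2 fold changes, taken after adding 1 to each normalized count, give FGF8 minus untreated at 1 day. Intervals are 95% exact binomial intervals of the ratio of the counts and cover counting error only. Brown adipocyte markers, summed over 10 genes, held 809.3, 202488 and 475305 normalized counts at days 0, 3 and 9 in untreated cells and 1959, 404086 and 551080 after FGF8. Ucp1 alone held 1328 of the day 0 FGF8 sum and 0 in untreated cells of that day. Of the 6 markers that averaged 20 or more at day 0, 2 were at least 2-fold higher and 2 lower, beside 7.27% and 10.8% of all genes. Their median log2 fold change was -0.24. Ucp1 passed only through its FGF8 library, and Ppargc1a (48.5 against 15.4) only through its untreated library. The difference between the sums was largest at day 3, where 4 of the 9 markers that averaged 20 or more were at least 2-fold higher with FGF8, beside 3.8% of all genes. The sum of 7 preadipocyte markers was lower after FGF8, with 31771 against 132606 normalized counts at day 0, 15429 against 40997 at day 3 and 13674 against 33980 at day 9. Pdgfra alone held 68261 of the untreated and 9680 of the FGF8 preadipocyte sum at day 0. Of the preadipocyte markers averaging 20 or more, 5 of 7, 5 of 6 and 5 of 6 were at least 2-fold lower. Of all genes, 10.8%, 12.1% and 8.74% were. The highest log2 fold changes among these markers were 0.11, 0.60 and 0.68. At day 0 Dpp4 passed only through its untreated library (160.1 against 5.12). Of 15 macrophage markers, Adgre1, C1qa and C1qb were at 0 counts in all 6 libraries. The macrophage sum ranged from 431.8 to 859.1 normalized counts in untreated and from 346.1 to 384.1 in FGF8 libraries, and 4 to 8 of the 15 markers were at 0. Of the 4 that averaged 20 or more, 1, 3 and 3 were at least 2-fold lower with FGF8 on the 3 days. The shares of all genes were 10.8%, 12.1% and 8.74%. The 1 at day 0 was Csf1r, with 45.5 normalized counts in untreated and 5.12 in FGF8 cells. It thus passed only through its untreated library. Between 2 and 3 of 8 endothelial markers were at 0, and their sum at day 0 was 1635 normalized counts in untreated and 76.8 in FGF8 cells. Only 2 of the 8 had over 10 counts in the untreated library of day 0, and 1 in the FGF8 library. On that day Kdr held 1288 normalized counts in untreated and 7.68 in FGF8 cells, and Tek 326.1 and 42.2. Pecam1 had 1 and 10 raw counts, and Cdh5 3 and 7. The sum of 8 lymphocyte markers was at most 9.13. The part of these shifts in the values below was not tested. In bulk samples, fewer cells that express a gene and less RNA per cell cannot be told apart.

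All 9 genes had fewer normalized counts in the FGF8 library than in the untreated library on all 3 days, and the counting interval lay below 0 on every day for 8 of them, with Ifitm6 as the exception. These 8 are the members that averaged 20 or more normalized counts over the 6 libraries, and of all 13256 genes that did so 21.6% were lower on all 3 days and 13.6% had the interval below 0 on each. Summed over the 9 genes, untreated cells held 114123, 38742 and 23218 normalized counts at days 0, 3 and 9, and FGF8 cells held 23127, 17164 and 8272. The FGF8 sum at day 0 was close to the untreated sum at day 9. Where the 2 libraries of a day averaged 20 or more normalized counts, 8 of 8 members were at least 2-fold lower at day 0, where 10.8% of all 12657 genes were. At day 3 it was 7 of 8, beside 12.1% of 12892 genes, and at day 9 it was 6 of 7, beside 8.74% of 13070 genes. No member was 2-fold higher, beside 7.27%, 3.8% and 1.12% of all genes on the 3 days. Ifitm6 did not reach this mean on any day, nor did Ifit1bl1 at day 9. Ifit1bl1 at day 0 and day 3 and Ifitm1 on all 3 days reached it with FGF8 values under 20, so only through their untreated library. The median log2 fold change of the members that passed was -2.17, -1.39 and -1.71 on the 3 days, beside 0.054, 0.081 and 0.083 over all genes. Of the 8 members that averaged 20 or more over the 6 libraries, all but Ifitm2, which is 7, were at least 2-fold lower on every day, beside 3.79% of all such genes. Ifit1bl1 and Ifitm1 are among these 7, and among the 8 with the interval below 0. With every FGF8 value under 20, they reached the mean over the 6 libraries only through their untreated libraries.

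**Figure D1:**
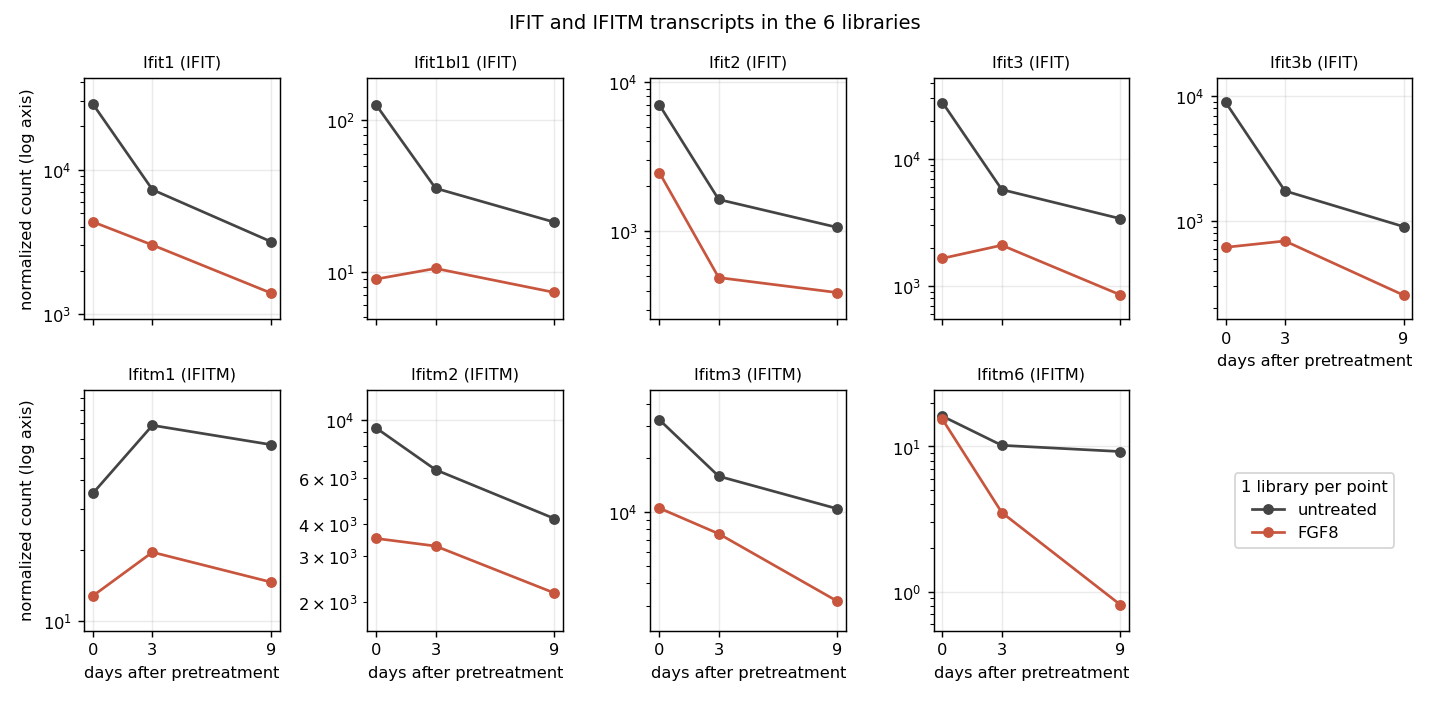
Normalized counts of the 9 genes (log axis, own range per panel) against days after the pretreatment, with 1 library per point, untreated in grey and FGF8 in red. Every FGF8 point lies below the untreated point of its day.

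Ifit3 showed the largest fold change of the members at day 0. On day 0, day 3 and day 9, in this order here and below, its untreated libraries held 27875, 5740 and 3387 normalized counts and its FGF8 libraries 1649, 2091 and 848.7. The FGF8 library of day 0 was below all 3 untreated libraries. Its log2 fold change was -4.08 (interval -4.16 to -4.00), or 16.9-fold, at day 0, which is the 124th lowest of 12657 genes, then -1.46 at day 3, and the level was 3.99-fold lower at day 9. Ifit3b, its near copy in the same cluster, held 8966, 1749 and 904.3 normalized counts in untreated cells and 617.1, 693.5 and 255.3 after FGF8. Its log2 fold changes of -3.86, -1.33 and -1.82 followed those of Ifit3. Their annotated transcripts of 2089 and 2042 bases were identical at 97.5% of 2042 aligned bases, and 15.3% of the 150-base windows of Ifit3 also occurred in Ifit3b, and how reads with several matches were counted is not given in the sources used here. The ratio of Ifit3 to Ifit3b counts stayed between 2.67 and 3.74 in the 6 libraries. Values of this pair are therefore uncertain as to which copy gave the reads.

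Ifit1, the cap-binding member, held 28243, 7267 and 3179 normalized counts in untreated cells and 4349, 3015 and 1403 after FGF8. FGF8 cells at day 0 were below untreated cells of day 0 and day 3 but above those of day 9. The log2 fold change was -2.70 (interval -2.75 to -2.65) at day 0, -1.27 at day 3 and -1.18 at day 9. Ifit1 overlaps Ifit1bl2 on the opposite strand, and 0.426% of its 150-base windows also occur there. Whether the counting used strand is not given in the sources used here. Ifit1bl1, an Ifit1-like paralog of low abundance, held 126.3, 35.6 and 21.3 normalized counts in untreated cells against 8.96, 10.5 and 7.32 with FGF8. All 3 FGF8 values were below the lowest untreated value. With 86 and 7 counts at day 0, its log2 fold change of -3.68 had a wide interval, from -5.17 to -2.71.

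Ifit2, which binds RNA and other IFIT proteins, varied less in fold change between the days than the other IFIT genes. Untreated cells held 7015, 1635 and 1064 normalized counts of it and FGF8 cells 2475, 491.4 and 390.2. The FGF8 library of day 0 was above the untreated libraries of day 3 and day 9, unlike that of Ifit3. The log2 fold changes were -1.50 (interval -1.58 to -1.43), -1.73 (interval -1.87 to -1.60) and -1.44 (interval -1.60 to -1.30). At day 0 Ifit2 thus had the smallest fold change of the 5 IFIT genes, and at day 3 the largest, with Ifit1bl1 (-1.67) inside its interval. The ratio of Ifit3 to Ifit2 counts was 3.97 (interval 3.85 to 4.10) in untreated and 0.666 (interval 0.620 to 0.715) in FGF8 cells at day 0, but 3.51 against 4.26 on day 3 and 3.18 against 2.18 on day 9. The ratio of Ifit1 to Ifit2 counts moved likewise on the first 2 days, from 4.03 to 1.76 with FGF8 at day 0, and from 4.44 to 6.14 at day 3. At day 9 it went the other way from that of Ifit3 to Ifit2, from 2.99 to 3.60 with FGF8.

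**Figure D2:**
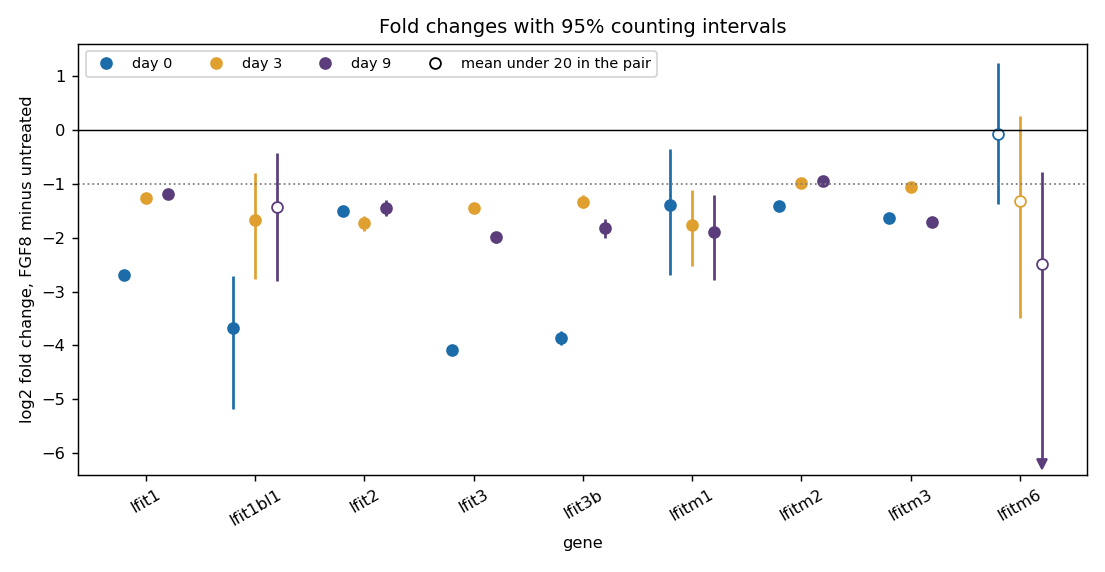
Log2 fold change of each gene, FGF8 minus untreated, on day 0 (blue), day 3 (orange) and day 9 (purple), with 95% counting intervals as lines. Open points average under 20 normalized counts, the dotted line marks 2-fold, and the arrow marks an interval that runs past the axis, to -8.91 for Ifitm6. Ifit1, Ifit1bl1, Ifit3 and Ifit3b are lowest at day 0, while Ifit2 lies between -1.73 and -1.44 on all days.

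Among the IFITM genes, Ifitm3, an endosomal restriction factor of influenza and other enveloped viruses, was the most abundant. Its untreated values were 32509, 15781 and 10405 normalized counts and its FGF8 values 10489, 7556 and 3184. FGF8 cells at day 0 and untreated cells at day 9 were at nearly the same level. The log2 fold changes were -1.63 (interval -1.67 to -1.60), -1.06 (interval -1.10 to -1.02) and -1.71 (interval -1.76 to -1.66). Ifitm2, also an endosomal member, held 9338, 6455 and 4191 normalized counts in untreated cells and 3512, 3284 and 2167 after FGF8. Every FGF8 value was below every untreated one. Its log2 fold changes of -1.41, -0.97 and -0.95 were past 2-fold at day 0 only. Of its 150-base windows, 14.3% also occur in Gm45717, a gene model that overlaps it on the same strand and is not listed in the libraries.

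Ifitm1, found mainly at the plasma membrane, was of low abundance. Untreated cells held 35.3, 68.7 and 56.8 normalized counts and FGF8 cells 12.8, 19.7 and 14.6. The groups did not overlap, and this was the only member whose highest value was at day 3 and whose lowest was the FGF8 library of day 0. Its log2 fold changes came to -1.39 (interval -2.69 to -0.34), -1.76 and -1.89. Ifitm6 was barely detected. Untreated libraries held 11, 8 and 13 raw counts of it and FGF8 libraries 12, 5 and 1. So few counts could not show a difference at day 0 (log2 fold change -0.068, interval -1.38 to 1.25) or at day 3 (-1.31, interval -3.49 to 0.26). At day 9 the FGF8 value was 11.4-fold lower with an interval of the ratio from 1.70 to 482, set by the single count in the FGF8 library.

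Per kilobase of annotated exon, Ifitm3 had the highest level of the 9 genes in every library, from 25378 normalized counts per kilobase in untreated cells at day 0 to 2486 in FGF8 cells at day 9. Ifitm2 came next in 5 of the libraries. In untreated cells at day 0 Ifit3 (9679 normalized counts per kilobase) and Ifitm2 (9347) were close, and in FGF8 cells of that day Ifit3 (572.5) lay well under Ifitm2 (3515). Ifit1bl1, Ifitm1 and Ifitm6 were the 3 lowest in every library, with at most 55.9 normalized counts per kilobase. Spread over cultures could not be set against any step in this order.

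**Figure D3:**
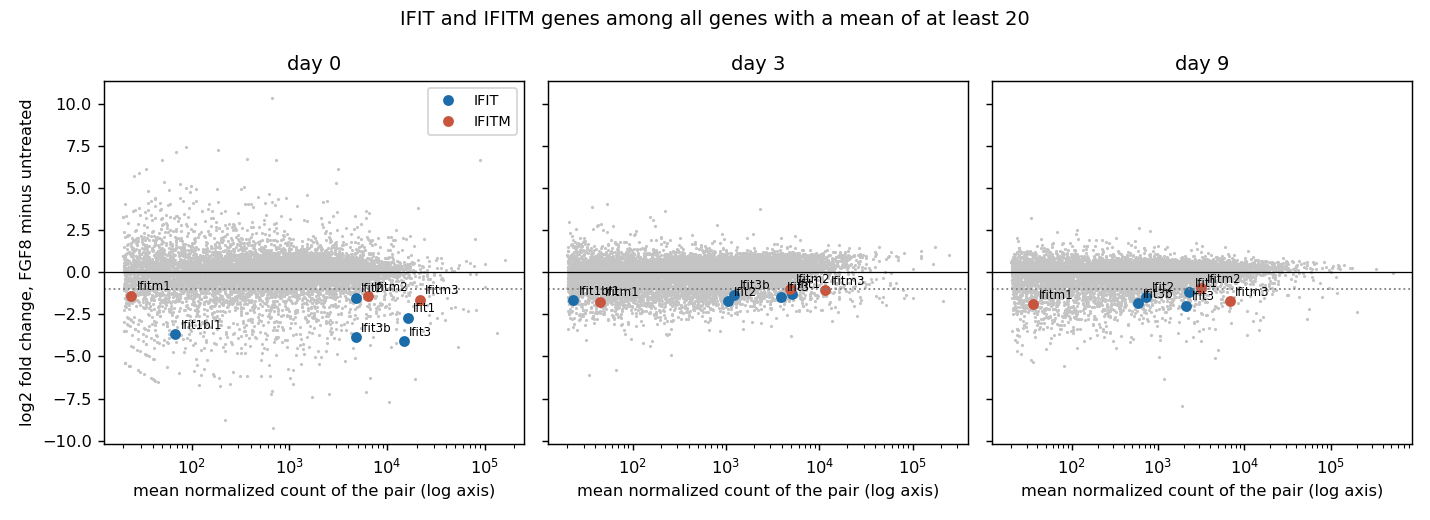
Log2 fold change, FGF8 minus untreated, against the mean normalized count of the pair (log axis) for all genes that average 20 or more on day 0, day 3 and day 9, with IFIT genes in blue and IFITM genes in red. The members lie below 0 on all days, and Ifit3, Ifit3b and Ifit1bl1 lie below -3.6 at day 0 only.

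The effect of FGF8 that the 3 days share was tested by quasi-likelihood in edgeR, in which the pairs of the 3 days stand in for replicates, so that any change of the response over time adds to the error. Ifit2 was lower by a log2 fold change of -1.58 (SE 0.14, adjusted p = 0.0429) and Ifitm3 by -1.49 (SE 0.20, adjusted p = 0.0499), both lower in 3 of 3 pairs. These are 2 of 9 members, beside 1.25% of 14569 genes called lower and 0.0206% called higher. The other members missed the threshold, with edgeR values of -1.13 (adjusted p = 0.0561) for Ifitm2, -1.77 (adjusted p = 0.0859) for Ifitm1, -1.73 (adjusted p = 0.0974) for Ifit1, -2.50 (adjusted p = 0.110) for Ifit3, -2.33 (adjusted p = 0.113) for Ifit3b, -2.37 (adjusted p = 0.121) for Ifit1bl1 and -1.30 (adjusted p = 0.317) for Ifitm6. Ifit1bl1, Ifit3 and Ifit3b, with the largest fold changes at day 0, had standard errors of 0.58, 0.57 and 0.54, against 0.14 for Ifit2. At an unadjusted p under 0.05, 8 of 9 members were lower, beside 12.9% of all genes. Without the day 0 pair 8 members passed, in a fit that called 11.6% of all genes lower, and without the day 3 or the day 9 pair 0 did. The Wald test of DESeq2 called 8 members, beside 8.85% of all genes called lower. The adjusted p of Ifit2 ranged from 1.38e-14 with the Wald test of DESeq2 to 1.00 without day as a block, and that of Ifitm3 from 3.30e-09 to 1.00, with edgeR giving 0.0619 for Ifitm3 under DESeq2 size factors.

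Over differentiation most members reached lower levels in untreated cells. From day 0 to day 9, 7 of 8 members that passed the mean of 20 were at least 2-fold lower, beside 19.5% of 13287 genes, with a median log2 difference of -2.62. The log2 difference was -3.31 for Ifit3b, -3.15 for Ifit1, -3.04 for Ifit3, -2.72 for Ifit2, -1.64 for Ifitm3 and -1.16 for Ifitm2. For the IFIT genes and Ifitm3 most of the difference lay between day 0 and day 3, where 6 of 8 members were at least 2-fold lower, beside 15.5% of all genes, whereas from day 3 to day 9 only Ifit1 was, beside 4.42%. Ifitm1 went the other way, with a log2 difference of 0.94 (interval 0.24 to 1.72) from day 0 to day 3.

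In FGF8-pretreated cells the timing differed between the genes. From day 0 to day 3, 1 of 6 members was at least 2-fold lower, beside 22.0% of 13013 genes. It was Ifit2, with a log2 difference of -2.33 (interval -2.46 to -2.21). Ifit3 was higher at day 3 than at day 0, by 0.34 (interval 0.25 to 0.44). Ifit3b was at 0.17 (interval 0.0099 to 0.33), which became -0.037 with scaling to total counts. Ifit1 was at -0.53, Ifitm3 at -0.47 and Ifitm2 at -0.097. From day 3 to day 9, 4 of 6 were at least 2-fold lower, beside 5.4% of all genes, namely Ifit1 (-1.10), Ifit3 (-1.30), Ifit3b (-1.44) and Ifitm3 (-1.25). Over the whole span it was again 4 of 6, beside 22.6% of 13131 genes. FGF8 cells at day 0 had fewer normalized counts than untreated cells at day 9 for 4 of the 7 members whose values in these libraries averaged 20 or more (Ifit3, Ifit3b, Ifitm1 and Ifitm2), beside 48.8% of 13235 genes, a share near that of all genes. These comparisons share libraries with those at each day.

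The nearest measured genes beside the clusters had values on both sides of 0. They lay 5.77 to 1429 kb from the IFIT cluster and 6.24 to 142.4 kb from the IFITM cluster. Family relatives were not counted among them. Of the 3 nearest measured protein-coding genes on either side of each cluster, 11 of 12 passed the filter on each day. Of these, 1 was lower by 2-fold or more and 2 were higher by as much at day 0, beside 10.8% and 7.27% of all genes. The numbers were 2 and 1 on day 3, beside 12.1% and 3.8%, and 1 and 0 on day 9, beside 8.74% and 1.12%. The medians over all 12 genes, with the 1 that did not pass, were 0.020, 0.32 and -0.035. Beside the IFIT cluster, Lipa, the lysosomal acid lipase, had log2 fold changes of -0.62, 0.43 and 0.035, and Ch25h, a cholesterol hydroxylase that is itself interferon-stimulated, had 2.78, -2.57 and -2.36. Fas, a death receptor, had -1.94, -1.10 and -0.40. On the far side Pank1, Kif20b and Rpp30 were at 0.028, 0.013 and 0.69 at day 0, with Pank1 at 1.08 on day 3. Beside the IFITM cluster, Pgghg was at -0.75 at day 0, Psmd13 at 0.065, Ptdss2 at 0.29 and Rnh1 at -0.16, Cox8b had 0 counts in both libraries, and B4galnt4 was at 1.93.

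**Figure D4:**
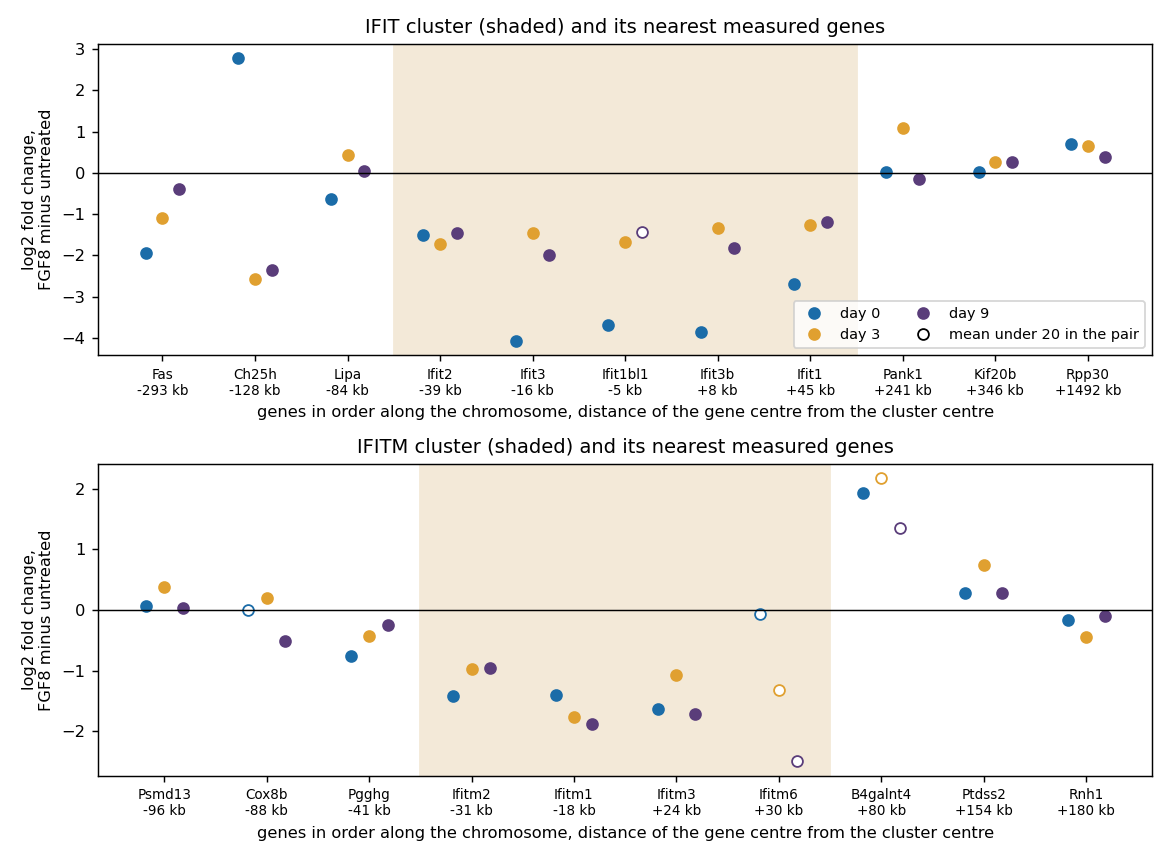
Log2 fold changes, FGF8 minus untreated, of the genes of each cluster (shaded) and of the 3 nearest measured genes on either side, in chromosome order with the distance of each gene centre from the cluster centre in kb, for day 0 (blue), day 3 (orange) and day 9 (purple). Open points average under 20 normalized counts. The shaded genes lie below 0 on all days, and the genes beside them lie on both sides of 0.

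Of the family relatives outside the 9 genes, Ifit1bl2, which overlaps Ifit1, had log2 fold changes of -1.96, -0.86 and -1.65. Ifitm5 had at most 19 counts and Ifitm10 at most 11 in any library, and Ifitm7 had 0 counts in all 6. A list of 63 interferon pathway genes held 31 genes at least 2-fold lower and 1 higher of 52 tested at day 0, beside 10.8% and 7.27% of all genes. On day 3 these numbers were 15 and 0 of 51, beside 12.1% and 3.8% of all genes. On day 9 they were 21 and 1 of 52, beside 8.74% and 1.12%. The medians on the 3 days were -1.60, -0.74 and -0.78. Among the 31 at day 0, Ifnb1 (41.1 normalized counts against 0) and Oas3 (173.3 against 12.8) passed only through their untreated library. The 1 higher gene at day 0, Ch25h (19.1 against 137.0), passed only through its FGF8 library. The 18 other antiviral effectors had their lowest values at day 0, with 17 lower, 1 higher and a median of -2.66. They had 7 and 12 genes lower at day 3 and day 9, beside the same shares of all genes. Bst2, a tether of budding viruses, had log2 fold changes of -2.95, -0.39 and -1.33, and Oasl2, an oligoadenylate synthetase-like protein, had -2.39, -1.15 and -1.63.

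In the other roles, values at least 2-fold lower at day 0 were found for 2 of 5 kinases and STATs, 3 of 6 interferon regulatory factors, 6 of 12 sensors and adaptors and 2 of 5 negative regulators, with none 2-fold higher. Of all genes, 10.8% were lower and 7.27% higher by as much on that day. Differences between roles were not tested. Among ligands, Ifnb1, which encodes interferon beta, had 28 counts in untreated and 0 in FGF8 cells at day 0, at least 10.7-fold lower against a floor of 3 counts, while its later counts were 2 and 10 in untreated and 1 and 2 in FGF8 cells and Ifna4 had at most 2 counts. None of the 5 receptors tested was past 2-fold at day 0. Ifnar1, a chain of the type I interferon receptor, was at -0.19, -0.49 and -0.13, and Ifngr1, of the interferon gamma receptor, at -0.72, 0.13 and -0.16. Of the kinases and STATs, the kinase Jak1 was at -0.0041 (interval -0.049 to 0.041) at day 0, -1.20 at day 3 and -0.60 at day 9. Of the interferon regulatory factors, Irf7 was at -2.71, -1.30 and -2.01 and Irf9 at -0.70, -0.27 and -0.43. Of the sensors and adaptors, Ddx58, which encodes the RNA sensor RIG-I, was at -1.58, -0.40 and -0.77, and the adaptor Mavs at -0.074, 0.92 and 0.27. Of the negative regulators, Usp18 was at -1.51, -0.44 and -1.01 and the phosphatase Ptpn2 at 0.68, 0.50 and 0.43. In the edgeR test of the shared effect, 2 of 53 pathway genes were called lower, Ifnar2 (-1.03, adjusted p = 0.0499) and Zbp1 (-2.48, adjusted p = 0.0479), and 0 higher, beside 1.25% and 0.0206% of all genes. At an unadjusted p under 0.05, 33 were lower and 1 higher, beside 12.9% and 10.3% of all genes, and DESeq2 was not counted for this list.

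**Figure D5:**
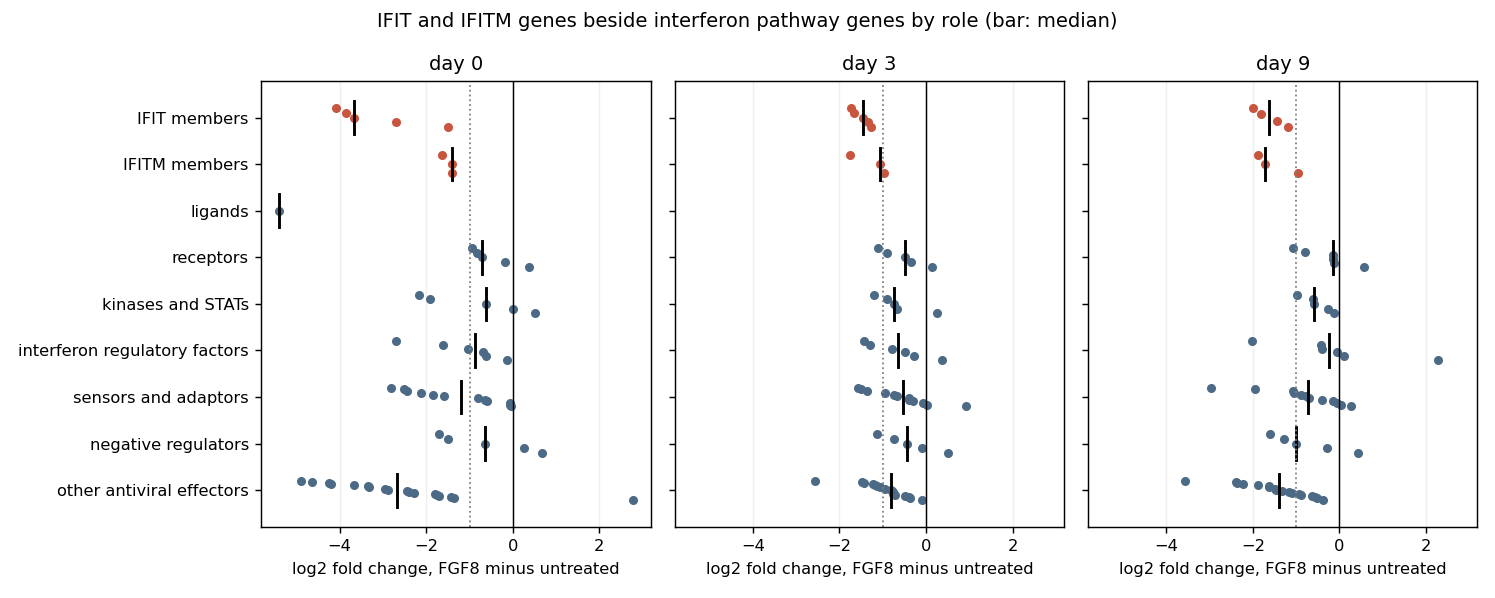
Log2 fold changes, FGF8 minus untreated, of IFIT and IFITM genes (red) and of interferon pathway genes by role (blue) on day 0, day 3 and day 9, for genes that average 20 or more normalized counts at that day, with the median of each group as a bar and 2-fold as a dotted line. The single ligand point, Ifnb1, had 0 counts after FGF8 and its place depends on the pseudocount. At day 0 the medians are -3.68 for IFIT genes, -2.66 for the other antiviral effectors, -1.41 for IFITM genes, -1.19 for sensors and adaptors, -0.86 for interferon regulatory factors, -0.72 for receptors, and -0.63 both for negative regulators and for kinases and STATs. The IFIT median is the value of Ifit1bl1, which had 86 counts in untreated and 7 in FGF8 cells.

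The genes whose levels over the 6 libraries were most like the mean centred profile of the 5 IFIT genes were Pdgfra, a preadipocyte marker, at a root mean square distance of 0.19 on the log2 scale, Abca9 (0.22), Oasl2 (0.28) and Lrrc17 (0.29), out of 11375 genes averaging 100 or more normalized counts. The IFIT genes themselves were at 0.22 (Ifit1) to 0.62 (Ifit2) from it. Pdgfra had 68261 normalized counts in untreated and 9680 in FGF8 cells at day 0, and log2 fold changes of -2.82, -1.79 and -1.84. Nearest to the mean profile of Ifitm1, Ifitm2 and Ifitm3 were Fbxl7 (0.095), Il4ra (0.16), Frmd6 (0.17) and Mapk8ip1 (0.18), and the 3 genes were at 0.21 (Ifitm2) to 0.52 (Ifitm1). All these values rest on the same 6 libraries and scaling.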

How the data were processed

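Messenger RNA libraries were sequenced by the authors as paired-end reads, trimmed with TrimGalore, aligned to GRCm39 with HISAT2 and counted per gene with featureCounts. The deposited values are raw counts per gene, 1 file per library. Tool versions, the annotation, the strand setting and the treatment of multi-mapping reads are not given in the sources used here. Of 26264 symbols, 23897 (91.0%) were found in GENCODE M39 (GRCm39), which gave coordinates and exon lengths. No 2 of the 15 pairs of libraries were identical, and 0 rows lacked a name.

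Counts were divided by DESeq2 (version 1.42.0) median-of-ratios size factors over the 6 libraries, with a pseudocount of 1 for log2 values. Genes were counted at 2-fold or more where the pair averaged 20 or more normalized counts. A count of 0 was set to a floor of 3 counts only for folds given as at least a value, as for Ifnb1. Log2 values kept the 0 with the pseudocount. Precision is that of the counts, wide under about 100. With 1 library per condition, p-values come only from the test of the shared effect, by edgeR (version 4.0.16; quasi-likelihood test, TMM, filterByExpr with the design, day as a block, 2 residual degrees of freedom, Benjamini-Hochberg adjustment over all genes tested, threshold 0.05), with the Wald test of DESeq2 on the same design as an alternative. Nothing in the labels says that the 3 days came from separate cultures, so these p-values measure only the spread between these pairs. The F statistic gave the standard errors. Tested on simulated counts for the shared effect, the step called 200 of 200 genes changed 4-fold and 5 unchanged ones of 14823 genes. Each changed gene had the same effect on all 3 days there, so this does not show how often a response that differs between days is called. The fold rule at day 0 found 200 of 200 and 82 unchanged ones of 12668 genes.

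The 9 genes, the gene lists and the rule for named genes were chosen with earlier results of these data known. Named are the 9 genes, 4 relatives, the 2 most abundant genes of each pathway role, the 3 nearest measured genes on either side of each cluster, and the 4 genes of closest profile. Ifnar2, Zbp1 and Oas3, and the markers Ucp1, Ppargc1a, Dpp4, Csf1r, Kdr, Tek, Pecam1 and Cdh5, were named after their values were seen. The result of 1 gene under this rule is not reported here. The alternatives were scaling by TMM, by total counts or by size factors of 1 pair, a pseudocount of 0.5 or 5, a minimum mean of 100 or none, rules of 1.5-fold and 4-fold, and, for the shared effect, the Wald test of DESeq2, its size factors in edgeR, other filters, no day block and leaving out each day. R 4.3.3, Python 3.11.15, scipy 1.17.1, pandas 2.3.3 and Biopython 1.88 were used.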

Additional observations from a re-analysis of the deposited data

Results flagged for a closer look

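Apart from cell markers, 4 other genes reported here had counting intervals of the FGF8 effect on opposite sides of 0 on different days. These differences between days were not tested, since each day has 1 library per treatment. Ifngr1, of the interferon gamma receptor, had log2 fold changes of -0.72, 0.13 and -0.16 on days 0, 3 and 9. Ch25h, next to the IFIT cluster, had 2.78, -2.57 and -2.36, and Lipa had -0.62, 0.43 and 0.035. Pank1 had 1.08 at day 3 and -0.15 at day 9. None of the 9 IFIT and IFITM genes showed such a change of side. The share of all genes that did is not given here, so nothing particular to the families can be read from this.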

How the results depend on the processing

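With no replicates, 1 culture could decide any value at a day, and counts under about 20, as for Ifitm6, leave 2-fold differences undetectable. In 135 recomputed fold changes of the 9 genes at a day, 0 changed direction and 9 moved by more than the counting interval. Total counts shifted all genes by -0.11 (log2) at day 3 and by up to -0.28 between days. The median at day 0 was -2.11 with total counts, -2.74 with size factors within the pair and -1.63 without a filter. At day 3 it was -1.50 with total counts and -1.30 at a mean of at least 100. At day 9 it was -1.77 within the pair, -1.65 with a pseudocount of 5 and -1.58 at a mean of at least 100. With a 4-fold rule, 4 of 8, 0 of 8 and 0 of 7 members were lower on the 3 days. The share of all genes at 4-fold is not given here, so these counts have no background. Of 144 recomputed differences between days, 33 moved and 1 changed direction, Ifit3b from day 0 to day 3 after FGF8 (-0.037 with total counts). For the shared effect, where 2 members were called, 8 were called by DESeq2 (Ifitm6 had no adjusted p), 1 with DESeq2 size factors in edgeR, 1 with filterByExpr by treatment, which was added after seeing the data, 3 without a filter, 0 without the day block, 8 without day 0, 0 without day 3 and 0 without day 9. Over all genes, edgeR called 182 lower and 3 higher, against 1220 and 472 by DESeq2, 93 and 1 with DESeq2 size factors, 406 and 13 without a filter, 0 and 0 without the day block (575 at an unadjusted p under 0.05), 1661 and 569 without day 0, and 0 and 0 without day 3 (1510 unadjusted) or without day 9 (1868 unadjusted). With filterByExpr by treatment, edgeR called 150 lower and 2 higher. The causes were not tested. The only pairing the libraries allow is by day, which is the block of the shared effect, since each group has 1 library and no replicate number.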
